A study of Mus musculus with 8 samples.

Results

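The genes described here are the 48 genes whose symbol is Psm followed by a letter from a to g and a number, which encode the subunits, assembly chaperones and regulators of the proteasome, chosen by that symbol alone from the 24532 genes in the expression files. The proteasome is the barrel-shaped protease that degrades proteins marked with ubiquitin. Its 20S core is built from rings of alpha subunits, which form the gate, and rings of beta subunits, of which Psmb5, Psmb6 and Psmb7 are catalytic. The 19S cap, made of the Psmc ATPases and the Psmd non-ATPase subunits, recognises and unfolds the marked protein. In cells exposed to interferon-gamma and in many leucocytes, Psmb8, Psmb9 and Psmb10 take the places of Psmb5, Psmb6 and Psmb7, and the activator made of Psme1 and Psme2 can cap the core. This form, the immunoproteasome, yields many of the peptides shown on MHC class I. These 5 genes are called immunoproteasome members below, and the other 43 constitutive members.

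MKRN1 is an E3 ubiquitin ligase, an enzyme that marks proteins for the proteasome. Poly(A) RNA of liver and subcutaneous adipose tissue was sequenced from male C57BL/6 mice that were either WT or MKRN1-null, with 2 libraries for each of the 4 groups and 8 in all. By their labels all mice had been on a high-fat diet (HFD) for 19 weeks from an age of 6 weeks and were 24 weeks old. These labels do not match each other exactly, and the methods of the study give a shorter diet for its obesity experiments. No chow-fed group is part of these samples. The null allele is carried in every cell of the animal, and the mice came from a line backcrossed to C57BL/6 and bred from heterozygotes, with WT littermates as controls. A tissue-restricted effect can therefore not be separated from an effect of the whole animal. Libraries 1 and 2 of a group are different mice, and the liver and adipose libraries with the same number carry the same mouse label. A limma p-value from 2 mice per group rests on the spread between these samples and on a variance estimate shared across all genes. An exact permutation test of 2 against 2 values cannot go below a two-sided p of 0.333. For that reason single members are tested here only in limma models fitted to all genes. Tissue RNA cannot tell fewer cells of a type from less RNA per cell.

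Expression is given in FPKM, fragment density scaled to transcript length and library depth, so levels of different genes can be compared. The aligned bases behind the libraries ranged from 5.72 to 9.24 Gb, with the lowest amount in adipose MKRN1-null replicate 2. That library stood apart. A list of 11 skeletal muscle markers made up 15.9% of its summed FPKM, against 0.00705% in the other MKRN1-null and 0.00891% and 0.0482% in the WT adipose libraries, and its adipocyte marker share was 3.88% against 6.73% to 8.24%. Of the adipocyte markers Adipoq, Plin1, Lep and Fabp4 were lowest in that library. Cfd went the other way, at 5480 FPKM there and 5080 in the other MKRN1-null library, against 1230 and 1270 in WT. Adipose results are therefore given for each MKRN1-null library. Hepatocyte markers held 9.26% to 11.1% of the liver libraries. Mkrn1 was at 9.42 and 10.1 FPKM in WT livers against 2.86 and 2.21 in the null livers. In adipose tissue it was at 16.8 and 19.3 in WT and at 4.58 and 2.90 in MKRN1-null mice, below both WT values in each MKRN1-null library of either tissue. By limma Mkrn1 passed in liver (log2 fold change -1.61, adjusted p = 0.00976) but not in adipose tissue (-2.02, adjusted p = 0.68).

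In WT tissues the members formed a graded set of levels by role. The 7 constitutive beta ring genes were the most abundant role group in liver, with a median of 115 FPKM (Psmb2 at 72.4 to Psmb4 at 144), followed by the 7 ubiquitous alpha ring genes at a median of 77.2 (Psma3 at 47.8 to Psma4 at 102). The 6 ATPases had a median of 61.2 and spanned only 1.70-fold from Psmc6 to Psmc3. The 11 non-ATPase subunits had a median of 47.7 and spanned 3.54-fold, from Psmd14, the deubiquitinase of the cap, at 32.5 to Psmd8 at 115. The 7 assembly chaperones, which are not part of the mature particle, had a median of 14.4 FPKM. In WT adipose tissue the order of the roles was the same, with medians of 134 for the beta ring, 108 for the alpha ring, 71.1 for the ATPases, 61.6 for the non-ATPase subunits and 14.6 for the chaperones. Psma8, the alpha subunit of testis, was at 0.0623 to 0.819 FPKM and Psmb11, the beta subunit of thymic epithelium, at 0 to 0.0155 over the 8 libraries, and both fell below the filter of 1 FPKM in at least 2 libraries. The other 46 members passed it in every comparison and were at 5.58 FPKM or more in every library, so none of them entered a test through only 1 of the groups.

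In MKRN1-null livers, proteasome genes as a group sat at the median of all genes, and Psmd8 was the member with the largest difference from WT. The question was whether loss of this ligase came with a change in the transcripts of the protease that acts after it. Members had a median log2 fold change of -0.18, and the median of all 10822 tested genes was -0.175, so the levels below are also read against that shift. Under median-of-ratios scaling the member median was 0.02 and under quantile normalization -0.02, so the sign of the family as a whole depends on the scaling. At an adjusted p under 0.05 (limma, Benjamini-Hochberg over all tested genes), 5 of 46 members were lower (10.9%), against 16.9% of all tested genes, and 0 were higher, against 2.51%. With a limma p of 0.05 or less before adjustment and a log2 fold change of 0.58 or more in size, 1 member was lower (2.17%, against 13.4% of all genes) and 0 were higher (against 2.25%). The limits of 0.05 and 0.58 are those of the study, which set the former on a different, permutation-based p. The unadjusted limma p was under 0.05 for 11 members (23.9%, against 39.5% of all genes). Both MKRN1-null values lay below both WT values for 30 members (65.2%, against 57.5% of all genes) and above them for 1, the alpha subunit Psma6 (2.17%, against 11.8%).

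Psmd8, the non-ATPase subunit also known as Rpn12, was at 109.8 and 120.3 FPKM in WT livers and at 72.8 and 64.7 in MKRN1-null livers. The groups did not overlap, and the MKRN1-null mean was 1.66-fold lower (log2 fold change -0.74, SE 0.10, adjusted p = 0.0186 by limma), or 1.47-fold lower relative to the median gene. Within the cap, Psmd8 was at 2.38 and 2.29 times the median of the other 16 ATPase and non-ATPase genes in WT livers and at 1.63 and 1.56 times it in MKRN1-null livers, a ratio taken inside each library that needs no scaling between libraries. The lower level ran along the whole transcript, since in 7 of its 7 exons the coverage of both MKRN1-null livers lay below that of both WT livers, with MKRN1-null to WT ratios of 0.558 to 0.648. The call held under median-of-ratios scaling (log2 fold change -0.53, adjusted p = 0.0489 by limma). It did not hold without MKRN1-null replicate 1 (adjusted p = 0.0525) or replicate 2 (adjusted p = 0.103), or with all 8 libraries in 1 limma fit (adjusted p = 0.12).

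The other 4 members called in liver were each 1.36-fold to 1.38-fold lower on average, or 1.21-fold to 1.22-fold lower relative to the median gene. Psmb5, the catalytic subunit with chymotrypsin-like activity, was at 109.7 and 121 FPKM in WT livers against 89.6 and 78.2 in the null livers (log2 fold change -0.46, SE 0.11, adjusted p = 0.0473 by limma). Psmd1, the large scaffold subunit Rpn2 of the cap, was at 40.5 and 46.5 in WT livers against 33.1 and 30.1 in the null livers (-0.45, SE 0.11, adjusted p = 0.0485 by limma). Neither gene had overlapping groups. Nor did their ratios inside each library, taken as for Psmd8. Psmb5 was at 1.16 and 1.19 times the median of the other 13 core ring genes in WT livers and at 0.924 and 0.873 times it in MKRN1-null livers. Psmd1 was at 0.835 and 0.879 times the median of the other 16 cap genes in WT livers and at 0.712 and 0.689 times it in MKRN1-null livers. Psmd5, a chaperone of the ATPase ring, was at 17.5 and 19.0 FPKM in WT livers against 12.6 and 13.4 in the null livers (-0.46, SE 0.09, adjusted p = 0.0329 by limma). Psmg4, a chaperone of the alpha ring, was at 13.5 and 14.3 in WT livers against 9.69 and 9.96 in the null livers (-0.46, SE 0.08, adjusted p = 0.0282 by limma). These chaperones act on different parts of the particle, the cap and the core, and both had well separated groups. Each of these 4 calls was lost under median-of-ratios scaling, under quantile normalization, with all 8 libraries in 1 limma fit and without any one of the 4 liver libraries, with limma adjusted p of 0.0652 to 0.371 in those fits. An annotated microRNA, Mir686, lies on the strand of Psmb5 within its exons over 109 bases, so reads of that stretch belong to both annotations.

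**Figure D1:**
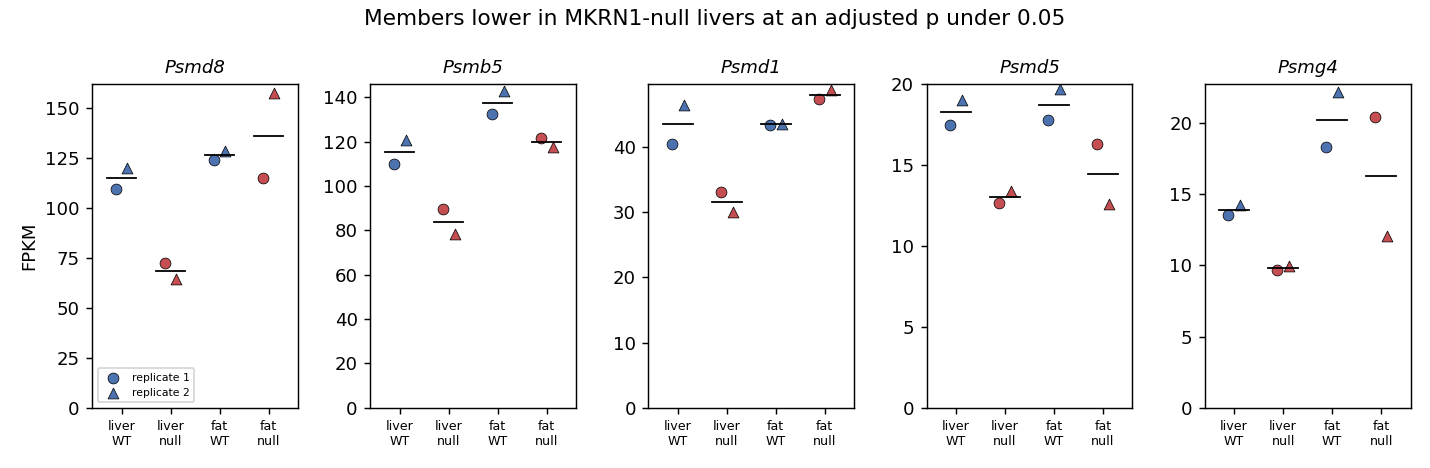
FPKM (linear axis from 0) of the 5 members lower in MKRN1-null livers, for each library of liver and subcutaneous adipose tissue (fat), with circles for replicate 1, triangles for replicate 2 and a line at the mean of 2. In liver both MKRN1-null values lie below both WT values for each gene, with Psmd8 at 72.8 and 64.7 against 109.8 and 120.3, whereas in adipose tissue the groups of Psmd8 and Psmg4 overlap.

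In the rest of the particle the liver values were closer to the median gene. Among the alpha ring genes, log2 fold changes ran from -0.28 to 0.04, and the largest was that of Psma1, at 70.8 and 80.3 FPKM in WT livers against 63.7 and 60.0 in the null livers (adjusted p = 0.103 by limma). The 6 ATPases ran from -0.28 to -0.12 with a median of -0.18, led by Psmc4 at 59.9 and 71.2 in WT livers against 56.9 and 50.5 in the null livers (adjusted p = 0.157 by limma). In both genes the MKRN1-null values lay below the WT values without passing the test. The 11 non-ATPase subunits had a median of -0.24 and the 7 chaperones a median of -0.25, both below the shift of all genes. Psme3, the nuclear activator, was at 21.7 and 23.6 in WT livers against 19.8 and 21.7 in the null livers. Psme4, the activator PA200, was at 16.7 and 18.3 in WT livers against 16.5 and 15.6 in the null livers. Psmf1, the inhibitor PI31, was at 9.24 and 9.81 in WT livers against 8.48 and 8.19 in the null livers. These 3 regulators had log2 fold changes of -0.12, -0.11 and -0.17, none of which passed the test, and all 3 were above 0 under median-of-ratios scaling.

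The immunoproteasome members lay above the constitutive genes in liver, at a median log2 fold change of -0.01 against -0.18 in FPKM. The difference of 0.17 was 0.18 under both other scalings, where the immunoproteasome median was 0.20 (median-of-ratios) and 0.15 (quantile). Psmb8 was at 24.0 and 24.1 FPKM in WT livers against 26.9 and 21.5 in the null livers. Psmb10 was at 26.4 and 23.6 in WT livers against 24.4 and 25.6 in the null livers. In both genes the groups overlapped and the log2 fold change was within 0.01 of 0 in FPKM. Psme2 was likewise at 73.1 and 70.0 in WT livers against 69.8 and 72.5 in the null livers. Psme1 was at 84.8 and 96.4 in WT livers against 78.4 and 76.0 in the null livers (log2 fold change -0.23, adjusted p = 0.152 by limma). Psmb9 was at 27.9 and 32.9 in WT livers against 27.5 and 19.0 in the null livers (-0.39, adjusted p = 0.207 by limma). These latter members had values below the constitutive median, and the median near 0 is set by Psmb8, Psmb10 and Psme2. Without WT replicate 2 the difference between the medians was 0.03 and without MKRN1-null replicate 1 it was 0.05. Beside these values, 4 of the 7 tested leucocyte markers were called lower in the same MKRN1-null livers (57.1%, against 16.9% of all genes). The others of the list of 15, among them Cd3e, Cd4, Cd8a and Ms4a1, fell below the filter in liver. The summed level of the list was 47.5 and 50.4 FPKM in the null livers against 141 and 97.7 in WT. The part of these markers in the immunoproteasome values was not tested.

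In liver the catalytic pairs differed from each other, with a higher share of Psmb8, a lower share of Psmb9 and overlapping shares of Psmb10. Psmb6 was at 94.3 and 102 FPKM in WT livers against 97.0 and 90.2 in the null livers, and Psmb7 at 134 and 148 in WT livers against 139.7 and 128 in the null livers, so both overlapped between groups where Psmb5 did not. Psmb8 made up 17.9% and 16.6% of the summed FPKM of Psmb8 and Psmb5 in WT livers and 23.1% and 21.6% in MKRN1-null livers. The mean was 17.3% ± 0.929 in WT livers against 22.3% ± 1.08 in the null livers (SD, n = 2), the groups did not overlap, and of the pair only Psmb5 passed the test. Psmb9 made up 22.8% and 24.4% of its pair with Psmb6 in WT livers against 22.1% and 17.4% in the null livers. Psmb10 made up 16.5% and 13.8% of its pair with Psmb7 in WT livers against 14.8% and 16.6% in the null livers. Without overlap, the Psmb9 share was lower in MKRN1-null livers, opposite to that of Psmb8, and the Psmb10 shares overlapped. These shares are of transcripts and are given without a test.

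**Figure D2:**
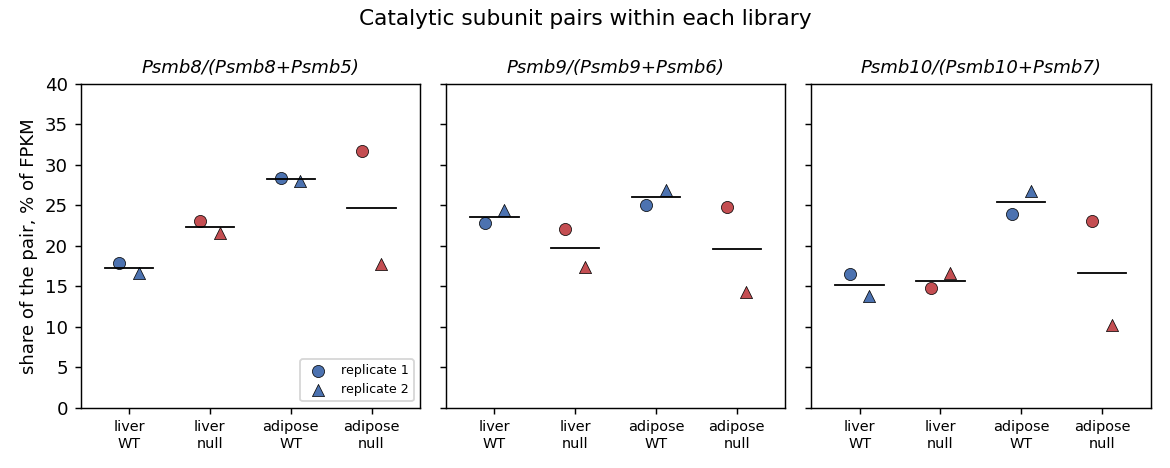
Share of each immunoproteasome catalytic subunit in the summed FPKM of its pair, in percent (axis from 0), per library, with circles for replicate 1, triangles for replicate 2 and a line at the mean of 2. The Psmb8 share was 17.9% and 16.6% in WT livers against 23.1% and 21.6% in the null livers, and in adipose tissue MKRN1-null replicate 2 was the lowest library in all 3 pairs.

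The start regions of 3 of these genes are shown because Psmd8 had the largest difference in liver and because Psmb5 and Psmb8 formed the pair with a higher immunoproteasome share in MKRN1-null livers. They are the 250 bases before the annotated start from RefSeq (GRCm38.p6), written 5' to 3' on the strand of the gene, at chr7:29180674-29180923 (minus strand) for Psmd8, chr14:54617996-54618245 (minus strand) for Psmb5 and chr17:34197945-34198194 (plus strand) for Psmb8. Capitals mark the antioxidant response element core TGACNNNGC in Psmb5, which begins 47 bases before the start, and the gamma-activated site TTCNNNGAA in Psmb8, which begins 97 bases before it.
Psmd8: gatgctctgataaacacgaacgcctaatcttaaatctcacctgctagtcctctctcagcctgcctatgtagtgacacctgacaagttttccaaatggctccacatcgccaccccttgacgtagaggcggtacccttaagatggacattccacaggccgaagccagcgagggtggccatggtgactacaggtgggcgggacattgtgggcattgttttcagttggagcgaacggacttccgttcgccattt
Psmb5: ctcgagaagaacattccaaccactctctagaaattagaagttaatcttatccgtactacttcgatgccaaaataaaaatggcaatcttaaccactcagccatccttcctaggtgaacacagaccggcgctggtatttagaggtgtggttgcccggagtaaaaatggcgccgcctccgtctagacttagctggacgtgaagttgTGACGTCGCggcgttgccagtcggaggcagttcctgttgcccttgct
Psmb8: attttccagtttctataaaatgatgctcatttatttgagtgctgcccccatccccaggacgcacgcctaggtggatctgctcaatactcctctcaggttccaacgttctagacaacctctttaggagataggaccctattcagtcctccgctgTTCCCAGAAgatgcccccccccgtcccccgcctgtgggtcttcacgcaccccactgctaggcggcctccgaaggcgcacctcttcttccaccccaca
In the Psmd8 stretch neither of these motifs, nor CCAAT or the interferon-stimulated response element core GAAANNGAA, was found on either strand. RefSeq promoters of 300 bases (250 before to 50 after the start) were at hand for 40 of the 48 members and 27025 genes in all, and were searched on both strands. TGACNNNGC was in those of 6 members (15.0%, against 14.0% of all genes), among them Psmb5, Psmb6 and Psmd12. CCAAT was in 14 (35.0%, against 41.1%), TTCNNNGAA in 3 (7.50%, against 9.55%) and GAAANNGAA in 7 (17.5%, against 9.76%), of which Psme1 was the only immunoproteasome member. A match is a run of letters, not a bound site.

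In adipose tissue no proteasome gene passed the test between genotypes, and the MKRN1-null libraries disagreed over the immunoproteasome members. At an adjusted p under 0.05 by limma 0 of 46 members were lower or higher, as were 0 of 12164 genes tested (background 0% in each direction). Mkrn1 itself did not pass there, so this test cannot show that the members were unchanged. At an unadjusted p under 0.05, 0 members passed against 785 genes (6.45%), and at the same limits on p and fold change as in liver 0 were lower (against 5.36%) and 0 higher (against 0.707%). The median of the members was -0.05 and that of all genes -0.198, and under median-of-ratios scaling and quantile normalization the member medians were 0.19 and 0.09. Both MKRN1-null values lay below both WT values for 4 members (8.7%, against 36.1% of all genes) and above them for 11 (23.9%, against 9.03%). The 4 were Psma1, Psmb5, Psmd3 and Psmd5, and the 11 were the alpha subunit Psma3, the catalytic subunits Psmb6 and Psmb7, the ATPases Psmc2, Psmc3, Psmc5 and Psmc6, and the cap subunits Psmd1, Psmd4, Psmd6 and Psmd7.

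Immunoproteasome members were within or above the WT values in 1 MKRN1-null adipose library and far below them in the other. In replicate 1 their median difference from the WT mean was 0.06 log2 units. There 0 of the 5 lay below both WT values, against 44.8% of all tested genes, and 3 lay above both (60%, against 30.2%). In replicate 2, the library with muscle transcripts, it was -1.06, and all 5 lay below both WT values, against 71.1% of all tested genes. For the constitutive members the medians were 0.08 and -0.17, and in replicate 2 they split, with 23 of 41 below both WT values (56.1%, against 71.1% of all genes) and 17 above (41.5%, against 20.6%). For all tested genes the medians were -0.04 and -0.38.

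Psme2 was at 162 and 170.5 FPKM in WT adipose tissue and at 175 and 73.0 in the MKRN1-null libraries. Psmb8 was at 52.5 and 55.5 in WT adipose tissue against 56.4 and 25.4 in the null mice. Psmb10 was at 52.5 and 58.4 in WT adipose tissue against 55.9 and 24.3 in the null mice. In each of these genes replicate 1 lay within or above the WT values and replicate 2 far below them. Psmb9 was at 33.0 and 41.5 in WT adipose tissue against 37.9 and 20.8 in the null mice, and Psme1 at 98.7 and 103 in WT adipose tissue against 117 and 70.0 in the null mice. The limma log2 fold changes over both libraries, -0.55 for Psme2, -0.50 for Psmb8, -0.57 for Psmb10, -0.38 for Psmb9 and -0.15 for Psme1, average these unlike libraries (adjusted p of 0.684 to 0.859). Without replicate 2 they were 0.07, 0.06, 0.01, 0.03 and 0.22.

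The shares within pairs followed the same libraries. Psmb8 held 28.4% and 28.0% of its pair in WT adipose tissue and 31.7% and 17.7% in the MKRN1-null libraries, Psmb9 held 25.0% and 26.9% against 24.8% and 14.3%, and Psmb10 held 23.9% and 26.8% against 23.0% and 10.2%. Replicate 2 was the lowest of the 4 libraries in each pair. In that library the 15 leucocyte markers summed to 256 FPKM, against 872 in MKRN1-null replicate 1 and 742 and 1098 in WT mice, and the 11 antigen presentation genes to 2808, against 7423, 7619 and 7000. The parts of the muscle, adipocyte and leucocyte transcripts in the immunoproteasome values of this library were not tested.

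The constitutive genes of adipose tissue with the largest values by role lay on the same side of WT in both MKRN1-null libraries, Psma1 and Psmd6 by much more in replicate 2. Psma1 was at 134 and 141 FPKM in WT adipose tissue against 126 and 73.8 in the null mice (log2 fold change -0.51), the lowest of the alpha ring. Psmb7 was at 167 and 159 in WT adipose tissue against 187 and 214 in the null mice (0.29), and Psmb6 at 98.9 and 113 against 115 and 124 (0.18). Both MKRN1-null libraries were above WT in these catalytic subunits. Psmb5, at 132 and 143 in WT adipose tissue against 122 and 118 in the null mice, was below it in both (-0.20). That value lay at the median of all tested genes (-0.198), and under median-of-ratios scaling it was 0.05. Psmc3, an ATPase, was at 84.4 and 83.4 in WT adipose tissue against 93.8 and 98.5 in the null mice (0.19). Psmd6, Rpn7 of the cap, was at 56.6 and 56.4 in WT adipose tissue against 58.4 and 79.0 in the null mice (0.26). The chaperone Psmd5 was at 17.8 and 19.7 in WT adipose tissue against 16.3 and 12.6 in the null mice (-0.36), the direction seen in liver.

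Psmd8 and Psmg4, called in liver, overlapped between genotypes in adipose tissue, at 124 and 129 against 115 and 158 FPKM for Psmd8 and at 18.3 and 22.1 against 20.4 and 12.1 for Psmg4. Psmd1 was at 43.4 and 43.5 in WT adipose tissue against 47.3 and 48.8 in the null mice (0.14). Psme3 was at 32.2 and 33.7 in WT adipose tissue against 33.0 and 24.1 in the null mice, Psme4 at 20.7 and 20.2 against 19.8 and 28.7, and Psmf1 at 10.3 and 9.93 against 11.5 and 6.78. The regulators thus lay near WT in replicate 1 and away from it, in either direction, in replicate 2. The lone replicate 2 set against WT by limma, with its spread assumed to be that of the WT libraries, gave 13 members lower (28.3%, against 43.7% of the 12004 genes tested) and 3 higher (6.52%, against 8.81%). In replicate 1 the median difference of all members from the WT mean was 0.07 log2 units, against -0.04 for all tested genes.

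**Figure D3:**
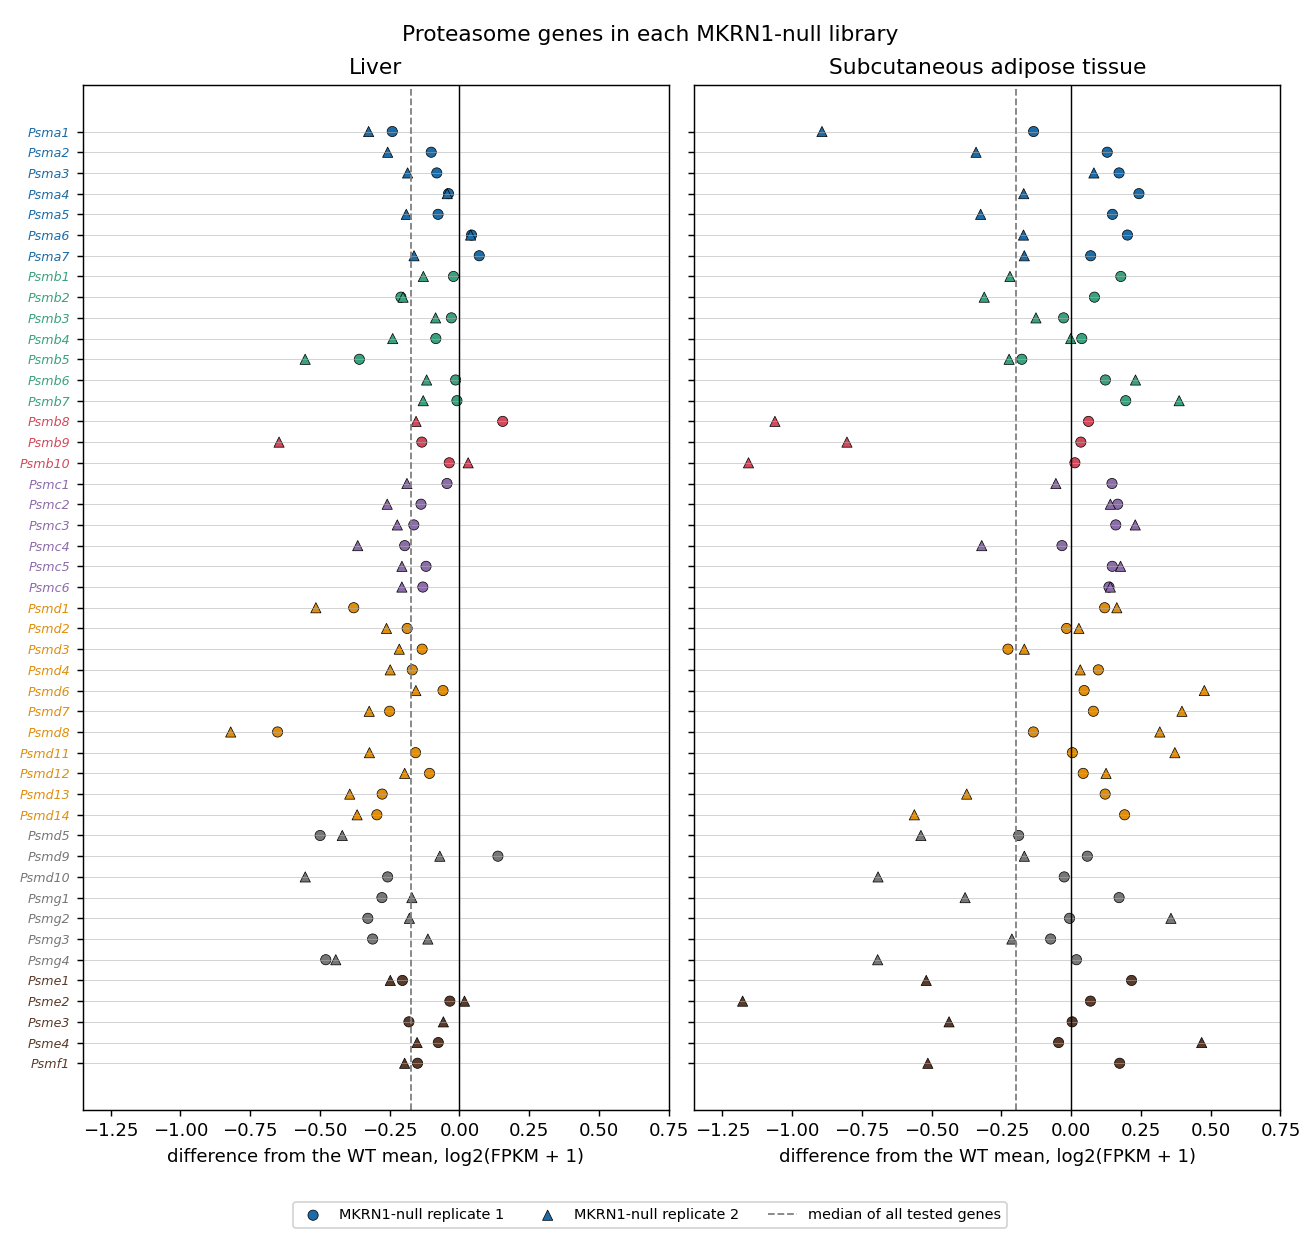
Difference of each MKRN1-null library from the WT mean, in log2(FPKM + 1), for the 46 tested members in liver and subcutaneous adipose tissue, coloured and ordered by role, with circles for replicate 1, triangles for replicate 2 and a dashed line at the median log2 fold change of all tested genes (-0.175 and -0.198). Psmd8 is the lowest point pair in liver, and in adipose tissue Psmb8, Psmb9, Psmb10 and Psme2 lie at or above 0 in replicate 1 and between -1.18 and -0.80 in replicate 2, the library with muscle transcripts.

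Whether the genotype effect on a member differed between the tissues was tested by an interaction term over all 8 libraries. This main fit treated the 8 libraries as independent, although liver and adipose libraries with the same number carry the same mouse label. At an adjusted p under 0.05, 0 of 46 members passed with a less negative or more negative effect in adipose tissue, as did 0 of the 9917 genes tested (background 0% in each direction). With a block for the mouse label 0 members passed as well. The unadjusted p-values and the calls without a library, given next, come from the fit without that block. At an unadjusted limma p under 0.05, 2 members passed, Psmd8 and Psmd1, the cap subunits called in liver, against 7.72% of all genes. Psmd8 had log2 fold changes of -0.74 in liver and 0.09 in adipose tissue, and Psmd1 of -0.45 and 0.14. Without adipose MKRN1-null replicate 1 the interaction passed for 10 members. The effect was less negative in adipose tissue for 6 of them (13%, against 9.92% of the 9871 genes tested), Psme4, Psmd6, Psmd1, Psmg2, Psmd7 and Psmd8, and more negative for 4 (8.7%, against 16.9%), Psme2, Psmb10, Psmb8 and Psma1. These 10 calls were made with the library with muscle transcripts, replicate 2, as the lone adipose MKRN1-null sample.

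Between the tissues of WT mice, 3 immunoproteasome members were lower in liver by more than the median gene under each scaling. Psme2 was at 73.1 and 70.0 FPKM in liver and 162 and 170.5 in adipose tissue (log2 fold change -1.21, adjusted p = 0.000166 by limma). Psmb8 was at 24.0 and 24.1 in liver and 52.5 and 55.5 in adipose tissue (-1.14, adjusted p = 0.000199 by limma), and Psmb10 at 26.4 and 23.6 against 52.5 and 58.4 (-1.12, adjusted p = 0.000468 by limma). The groups were far apart in all 3 genes, at 1.44-fold to 1.53-fold below adipose tissue relative to the median gene. Psmb9 (-0.28, adjusted p = 0.139 by limma) and Psme1 (-0.16, adjusted p = 0.199 by limma) did not pass, and in replicate-blocked limma Psmb9 did (adjusted p = 0.0452). Relative to the median gene both were higher in liver, by 0.31 and 0.43 log2 units. Under median-of-ratios scaling Psmb9 was at 0.41 and Psme1 at 0.55, the latter past the threshold (adjusted p = 0.0088 by limma). Under quantile normalization they were at 0.03 and -0.13. The leucocyte markers summed to 97.7 and 141 FPKM in WT livers and to 742 and 1098 in WT adipose tissue, and their part in these differences was not tested.

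The constitutive members depended on how the tissues were scaled to each other, because the median of all 12799 tested genes was 0.59 log2 units lower in liver. In FPKM 20 of the 46 members were lower in liver (43.5%, against 62.3% of all genes) and 3 higher (6.52%, against 17.9%). Under median-of-ratios scaling 3 members, Psme2, Psmb8 and Psmb10, were lower (6.52%, against 34.3% of all genes) and 32 higher (69.6%, against 34.3%). The 3 genes higher in liver in FPKM were higher under both scalings. Psmd11, Rpn6 of the cap, was at 40.9 and 51.7 FPKM in liver and 27.4 and 28.2 in adipose tissue (log2 fold change 0.71, adjusted p = 0.00549 by limma). The chaperones Psmg3, at 18.7 and 20.8 against 10.99 and 13.76 (0.64, adjusted p = 0.00866 by limma), and Psmd9, at 14.8 and 13.9 against 9.57 and 9.55 (0.54, adjusted p = 0.00382 by limma), were the others. Among the constitutive members Psma1 had the lowest liver value relative to adipose tissue, 75.6 against 138 FPKM on average (-0.86, adjusted p = 0.000943 by limma). Under median-of-ratios scaling the Psma1 difference was -0.16 and did not pass, and under quantile normalization it was -0.87 and did (adjusted p = 0.000893 by limma).

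**Figure D4:**
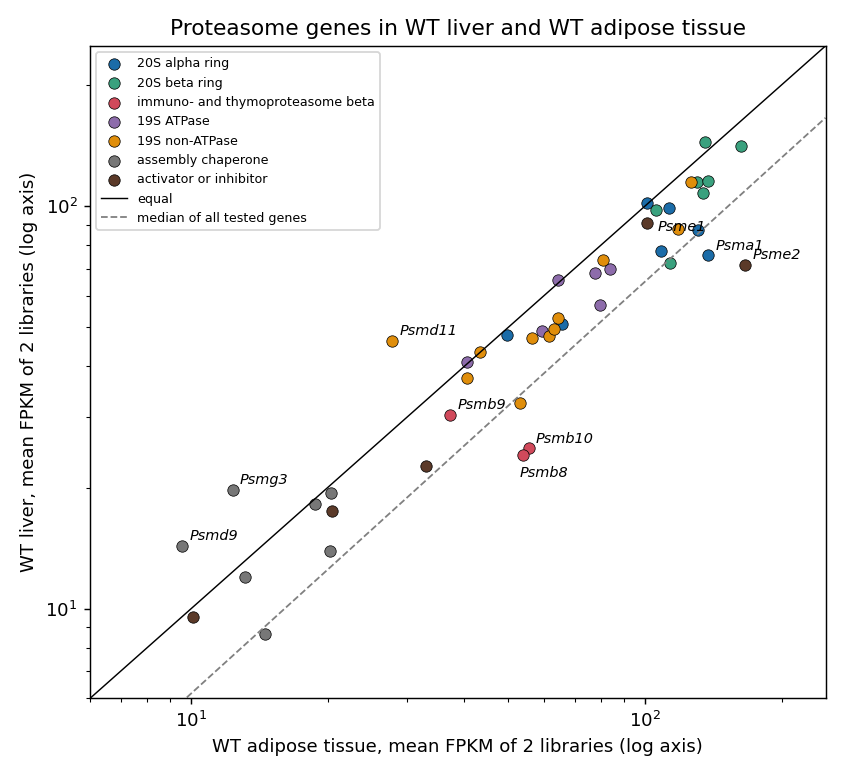
Mean FPKM of each tested member in WT liver against WT adipose tissue (2 libraries each, both axes logarithmic), coloured by role, with a solid line at equal levels and a dashed line at the median log2 difference of all tested genes (-0.59). Psme2, Psmb8 and Psmb10 lie farthest below the dashed line and Psmd11, Psmg3 and Psmd9 farthest above the solid line, and most members between the lines are lower in liver in FPKM and higher under median-of-ratios scaling.

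Other genes of the pathway showed few changes between genotypes in liver. Of 9 partners and assembly factors without a Psm name, such as Pomp and Adrm1, 0 passed in liver (median -0.17). Of 10 genes that control proteasome gene expression or its factors, 1 passed, Nfe2l2 (NRF2, the factor of the antioxidant response), which was at 46.9 and 51.0 FPKM in WT livers against 32.2 and 29.7 in the null livers (log2 fold change -0.64, adjusted p = 0.0191 by limma). The median of that list was -0.26. Of 16 shuttle factors and ubiquitin genes 1 passed, the shuttle factor Ubqln2, at 7.80 and 7.68 in WT livers against 5.44 and 5.65 in the null livers (-0.42, adjusted p = 0.0355 by limma, list median -0.15). Both MKRN1-null values of Nfe2l2 and of Ubqln2 lay below both WT values, as in 57.5% of all genes. The shares of these lists called lower (0%, 10% and 6.25%) were under the 16.9% of all genes. Calls of genes outside the family, here and below, are given from the main fit only, without the other scalings or leaving out a library.

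Genes that act with the immunoproteasome were called lower in liver at about the share of all genes, 16.9%. Of 11 antigen presentation genes 2 passed (18.2%, list median -0.19), the class I heavy chain H2-D1, at 448 and 430.0 FPKM in WT livers against 293 and 262 in the null livers (log2 fold change -0.66, adjusted p = 0.0200 by limma), and the peptide transporter Tap2, at 18.5 and 17.2 against 13.8 and 13.4 (-0.37, adjusted p = 0.0446 by limma). Of 13 interferon response genes 2 passed (15.4%, list median -0.32), Irf8, at 4.13 and 3.33 in WT livers against 1.43 and 1.83 in the null livers, and Oasl2, at 3.44 and 2.57 against 1.41 and 1.39. Among the leucocyte markers the lowest were Lyz2 (log2 fold change -1.34, adjusted p = 0.0172 by limma), Itgax (-1.23, adjusted p = 0.0123) and Cd68 (-1.21, adjusted p = 0.0282), which mark macrophages and dendritic cells. In adipose tissue 0 genes of these lists passed, as did 0 of all 12164 genes tested. The medians were -0.04, -0.17, -0.07, -0.50 and -0.31 for the partners, control, shuttle, antigen presentation and interferon lists. That of the leucocyte markers was -0.82, and that of all tested genes -0.198. These medians average 2 unlike MKRN1-null libraries. Antigen presentation genes summed to 7000 FPKM in replicate 1 and 2808 in replicate 2, against 7423 and 7619 in WT. Leucocyte markers summed to 872 and 256, against 742 and 1098, and interferon response genes to 190.5 and 96.3, against 172 and 202.5.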

How the data were processed

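The authors deposited 1 file per library with coverage, FPKM and TPM for 36780 transcripts, made, per the file headers and the labels, with StringTie 1.3.3b, HISAT2 and SAMtools and the mm10 genome (the version of HISAT2, and that of SAMtools, was not given in the sources used here), whereas the methods of the study describe TopHat2, Cufflinks and HTSeq. The deposited FPKM are scaled to depth and are not counts, so no count test was used. Libraries were poly(A) selected without strand, so Psma4 and Psme1, which overlap AY074887 and Emc9 on the other strand by 45 and 4 bases, can hold reads of those genes, and how reads shared with pseudogenes were assigned was not stated.

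For each gene ID the transcript FPKM were added up, 70 of which had no symbol. Genes with at least 1 FPKM in at least 2 libraries of a fit were tested on log2(FPKM + 1), which understates fold changes of low genes, with limma 3.58.1 in R 4.3.3 (eBayes with trend, Benjamini-Hochberg over all tested genes). Aligned bases were coverage divided by FPKM. Python 3.11.15 with pandas 2.3.3, numpy 2.4.6 and matplotlib 3.10.9 handled tables and figures. The limma step was tested on simulated data with known changes and independent noise. Those data held no shift of all genes and no library unlike the others, so the check covers neither. Members and lists were chosen with earlier results of these data known. Values of every library are given for the catalytic pairs, Psme and Psmf genes, members past adjusted p in either tissue and the largest value of each role and tissue. Members higher in both MKRN1-null adipose libraries, the genes that differed between WT tissues and the genes with motifs were named after their values were seen. From the other lists up to 3 genes past the threshold are named. Alternatives were a pseudocount of 0.1, no filter, quantile normalization, median-of-ratios scaling, all 8 libraries in 1 fit, the replicate block and leaving out each library. In a tissue the replicate numbers name different mice of the 2 genotypes. The tissues of a number carry the same mouse label. In WT mice the differences between replicates 1 and 2 in the 2 tissues correlated at r = 0.06 across 12799 genes.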

Additional observations from a re-analysis of the deposited data

How the results depend on the processing

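Of the counts, 5 members lower in liver became 3 without a filter, 1 under median-of-ratios scaling, 1 under quantile normalization, 0 with all 8 libraries in 1 fit, 2 with the replicate block and 0 to 1 on leaving out a library. In adipose tissue and in the interaction, members passed only on leaving out adipose MKRN1-null replicate 1, which left replicate 2 as the lone sample of its group. In WT tissues the 3 members higher in liver became 32 under median-of-ratios scaling and 8 under quantile normalization, and the 20 lower became 3, 13 and, with all 8 libraries in 1 fit, 11, or 10 to 20 on leaving out a library. The replicate block changed no count there by over 1.5 times. The immunoproteasome minus constitutive median, 0.17 in liver and -0.51 in adipose tissue, ranged from 0.03 to 0.24 and from -0.89 to -0.02 on leaving out a library. The causes were not tested. Psma8 and Psmb11 were too low to be tested at this depth.

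Single members near 0 changed sign without passing a test. Under median-of-ratios scaling the liver log2 fold changes became 0.14 for Psmb6, 0.14 for Psmb7, 0.20 for Psmb10, 0.02 for Psmc3, 0.10 for Psmd6, 0.20 for Psme2, 0.08 for Psme3, 0.09 for Psme4 and 0.02 for Psmf1, and under quantile normalization 0.03 for Psmb6, 0.02 for Psmb7, 0.18 for Psmb10, 0.07 for Psmd6, 0.15 for Psme2, 0.07 for Psme3, 0.08 for Psme4 and 0.03 for Psmf1. With a pseudocount of 0.1 Psmb8 was at -0.00. In adipose tissue median-of-ratios scaling gave 0.05 for Psmb5, 0.07 for Psmc4, 0.10 for Psme1, 0.02 for Psme3 and 0.05 for Psmf1, and quantile normalization 0.02 for Psmc4 and 0.04 for Psmf1. Between WT tissues median-of-ratios scaling gave 0.41 for Psmb9 and, past the threshold, 0.55 for Psme1, and quantile normalization 0.03 for Psmb9.

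On leaving out a library the liver values ran from -0.14 to 0.00 for Psmb7, -0.15 to 0.16 for Psmb8, -0.08 to 0.08 for Psmb10 and -0.04 to 0.02 for Psme2. In adipose tissue they ran from -1.06 to 0.06 for Psmb8, -0.80 to 0.03 for Psmb9, -1.16 to 0.01 for Psmb10, -0.52 to 0.22 for Psme1, -1.18 to 0.07 for Psme2, -0.14 to 0.32 for Psmd8, -0.69 to 0.02 for Psmg4, -0.44 to 0.00 for Psme3, -0.04 to 0.47 for Psme4 and -0.51 to 0.17 for Psmf1, the negative ends of the immunoproteasome genes being those without MKRN1-null replicate 1.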

Other observations

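Of the 48 members 9 had more than 1 annotated transcript, and in Psmd4 and Psmg4, picked after their values were seen, the second transcript came closest to the first. Psmd4, the ubiquitin receptor Rpn10, had its FPKM spread over 2 transcripts in every library. NM_008951 was at 41.8 and 46.0 FPKM in WT livers against 39.5 and 35.5 in the null livers, and NM_001282017 at 36.8 and 50.6 in WT livers against 37.9 and 37.6 in the null livers. The first was lower in both MKRN1-null livers, and the second overlapped between the groups. Of the transcripts of Psmg4, NM_001101430 was at 9.29 and 9.49 FPKM in WT livers against 6.42 and 6.47 in the null livers, and NM_001110515 at 4.26 and 4.77 in WT livers against 3.27 and 3.50 in the null livers. Both were lower in both MKRN1-null livers.

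The rule left out 3 genes with similar symbols. Psme3ip1, which encodes a protein that interacts with Psme3, was at 12.7 and 14.6 FPKM in WT livers against 13.4 and 14.1 in the null livers. Psmc3ip, a meiotic recombination gene despite its name, was at 0.159 to 0.539 FPKM in the livers and 1.498 to 2.76 in adipose tissue. Psme2b, a gene similar to Psme2, stayed between 0.124 and 0.837 FPKM in all 8 libraries.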
